A study of Rattus norvegicus with 12 samples.

Results

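The genes of the transforming growth factor beta (TGF-beta) system examined here were 10 of the 18483 genes in the rat expression matrices, found by symbol. They were the 3 ligands Tgfb1, Tgfb2 and Tgfb3, the 4 latent TGF-beta binding proteins Ltbp1, Ltbp2, Ltbp3 and Ltbp4, the 2 receptors Tgfbr1 and Tgfbr2, and the inhibitory SMAD gene Smad7. All 10 passed the filter on low counts that left 13967 genes for testing. The members were chosen by their role in the pathway and on fitted log2 fold changes of the knockdown comparison without PE, in which Ltbp2 and Ltbp4 had been singled out. The values of that comparison, and of the difference between the knockdown effects with and without PE, are therefore given as descriptions with no p-value. Whether other comparisons were also in view is not known, and both PE comparisons share samples with the knockdown comparison without PE. The p-values given for members in the other comparisons make no allowance for the choice of members.

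Neonatal rat ventricular myocytes (NRVMs) from Sprague-Dawley rats were transfected with a negative control siRNA (siNeg) or with siRNA against Slc39a2 (siSlc39a2), a plasma membrane zinc importer. Phenylephrine (PE), an alpha-1 adrenergic agonist that induces hypertrophy, was added 12 h after transfection and left for 36 h by the sample labels in the groups named siNeg PE and siSlc39a2 PE, while the study's culture methods give a longer exposure. Each of the 4 groups held 3 samples, and all 12 were transfected primary cultures enriched for myocytes by density centrifugation, not pure myocytes. The study asked how loss of Slc39a2 changes the transcriptome of resting and PE-treated myocytes.

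TGF-beta ligands are made as precursors whose propeptide stays wrapped around the mature dimer and keeps it latent. The propeptide is usually linked to a latent TGF-beta binding protein, which anchors the complex on fibrillin and fibronectin fibres until integrins or proteases release the ligand. Free ligand binds the type II receptor Tgfbr2, which recruits and activates the type I receptor Tgfbr1, and SMAD2 and SMAD3 then carry the signal to the nucleus with SMAD4. Smad7 is a target of the pathway that blocks the receptor and brings ubiquitin ligases to it. In the heart the pathway is best known for driving matrix production by fibroblasts.

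The libraries held between 24065539 and 28603854 assigned reads, and the 10 genes had between 171 and 5736 counts in each sample. Slc39a2 was at 2.06 ± 0.229 CPM (counts scaled to library size, mean ± SD, n = 3) in siNeg and at 0.392 ± 0.324 CPM in siSlc39a2, with 50, 50 and 59 counts against 21, 11 and 2. With PE it was at 5.71 ± 1.92 CPM in siNeg PE and at 1.13 ± 0.26 CPM in siSlc39a2 PE, and the knockdown groups did not overlap their controls. Cardiomyocyte markers summed to between 60200 and 62200 CPM in siNeg and between 49400 and 50400 CPM in siSlc39a2. With PE they summed to between 65400 and 70800 CPM in siNeg PE and between 66800 and 71200 CPM in siSlc39a2 PE. None of them was at 0 throughout a group. The sums did not stand for all 12 of these markers. Without PE, Myh6 went from 15900 CPM in siNeg to 7410 in siSlc39a2, while Tnnt2 was at 5080 and 5370. With PE, Myh6 went from 8200 CPM in siNeg PE to 3670 in siSlc39a2 PE, and Actc1 from 19100 to 26000. The median log2 fold change of the 12 for knockdown was -0.18 without PE and -0.15 with PE. Fibroblast markers summed to between 14000 and 18500 CPM in siNeg and between 5410 and 5710 CPM in siSlc39a2. With PE the ranges were 9260 to 11900 CPM in siNeg PE and 3650 to 5040 CPM in siSlc39a2 PE. Endothelial, macrophage and epicardial markers each summed to at most 122 CPM in any sample, and smooth muscle and pericyte markers to between 369 and 835 CPM. In bulk RNA, fewer cells of a type and less RNA per cell cannot be told apart.

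The promoters of Tgfb1 and Ltbp4, which were lower in both knockdown groups than in their controls, are shown with that of Ltbp1, which was not lower under PE. Each is the 250 bases before the annotated start in RefSeq, 5′ to 3′ on the gene's strand. The positions on the GRCr8 build, which differs from the build of the counts, were chr1:90324062-90324311 on the plus strand for Tgfb1, chr1:91759808-91760057 on the minus strand for Ltbp4 and chr6:26177302-26177551 on the minus strand for Ltbp1. Capitals mark matches to the motifs searched on both strands, which were the SMAD-binding element CAGAC, the cAMP response element TGACGTCA, the AP-1 site TGAGTCA and the TATA box TATAAA.
Tgfb1: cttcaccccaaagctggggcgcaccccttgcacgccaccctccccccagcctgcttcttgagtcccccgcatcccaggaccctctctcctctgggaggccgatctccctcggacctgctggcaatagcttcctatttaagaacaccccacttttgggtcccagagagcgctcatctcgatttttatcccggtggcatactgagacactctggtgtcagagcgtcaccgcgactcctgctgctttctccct
Ltbp4: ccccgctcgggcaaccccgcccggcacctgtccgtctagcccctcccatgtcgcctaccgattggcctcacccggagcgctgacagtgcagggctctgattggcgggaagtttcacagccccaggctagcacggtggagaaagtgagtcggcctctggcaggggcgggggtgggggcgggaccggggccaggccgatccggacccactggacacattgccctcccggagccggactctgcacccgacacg
Ltbp1: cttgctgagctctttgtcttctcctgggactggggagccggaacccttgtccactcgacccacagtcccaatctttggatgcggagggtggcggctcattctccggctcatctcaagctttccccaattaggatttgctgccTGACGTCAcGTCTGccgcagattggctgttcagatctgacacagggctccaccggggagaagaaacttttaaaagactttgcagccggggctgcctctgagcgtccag
Only Ltbp1 of these 3 held a match, a cAMP response element starting 108 bases before the start and a SMAD-binding element starting 99 bases before it, which did not overlap. Over the 27457 promoters in the table, 42.8% held CAGAC, 1.7% held TGACGTCA, 3.98% held TGAGTCA and 13.1% held TATAAA. Of the 10 members, 2 held CAGAC, namely Ltbp1 and Ltbp2, and 1 held TGACGTCA, with none for the other two motifs. For 5 of the 10 members the start used lay more than 50 bases inside the gene as annotated, and their windows are not shown.

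Tgfb3, a ligand needed for palate and lung development, moved in opposite directions with PE in the siRNA backgrounds. It was at 162, 174 and 190 CPM in siNeg and at 82.1, 86.2 and 94.7 CPM in siNeg PE. After knockdown it was at 95.1, 96.2 and 101 CPM without PE and at 203, 197 and 203 CPM with PE. The siNeg PE and siSlc39a2 samples lay below all siNeg samples, and the siSlc39a2 PE samples lay above every other sample. PE lowered Tgfb3 in siNeg cells, with a log2 fold change of -1 (SE 0.07, edgeR adjusted p = 5.75e-07). PE raised it after knockdown, with a log2 fold change of 1.04 (SE 0.07, edgeR adjusted p = 1.84e-07), and it was 2.29-fold higher in siSlc39a2 PE than in siNeg PE (edgeR adjusted p = 2.74e-08). Without PE the knockdown samples were lower, with a log2 fold change of -0.85 (SE 0.07), so that the knockdown effect with PE exceeded that without PE by 2.04 (SE 0.1) on the log2 scale. These comparisons share groups with each other.

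Tgfb2, which is best known in the heart for its part in valve and septum formation, rose with PE in both backgrounds. Without PE, Tgfb2 was at 22.8, 30.5 and 28.6 CPM with siNeg and at 29, 30 and 33.1 CPM with siSlc39a2. With PE, Tgfb2 was at 38.1, 54.8 and 61.2 CPM with siNeg and at 134, 149 and 184 CPM with siSlc39a2. The siNeg and siSlc39a2 samples overlapped, the siNeg PE samples lay above both, and the siSlc39a2 PE samples lay above all others. The PE effect was 1.88-fold in siNeg cells (edgeR adjusted p = 0.000914) and 5.06-fold after knockdown (edgeR adjusted p = 3.38e-07). Under PE, the knockdown cells had 3.02-fold more Tgfb2 than siNeg PE cells (edgeR adjusted p = 5.24e-06). Without PE the log2 difference was 0.17 (SE 0.17), and the knockdown effect with PE exceeded that without by 1.43 (SE 0.24).

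Tgfb1, the ligand most often linked to cardiac fibrosis, was lower after knockdown in both PE states, while its PE effects did not pass the test. Without PE, Tgfb1 was at 90.3, 74.1 and 74.2 CPM with siNeg and at 39.5, 36.3 and 34.3 CPM with siSlc39a2. With PE, Tgfb1 was at 71.6, 71.9 and 71.7 CPM with siNeg and at 35.8, 29.9 and 34.8 CPM with siSlc39a2. Every knockdown sample lay below every siNeg and siNeg PE sample. Under PE it was 2.14-fold lower after knockdown (log2 fold change -1.10, SE 0.09, edgeR adjusted p = 9.68e-07), and without PE the log2 difference was -1.12 (SE 0.09). The PE effect did not pass the test in siNeg cells, where the log2 fold change was -0.15 with a 95% interval from -0.35 to 0.05 (edgeR adjusted p = 0.193). After knockdown it was -0.13, with an interval from -0.34 to 0.07 (edgeR adjusted p = 0.245).

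**Figure D1:**
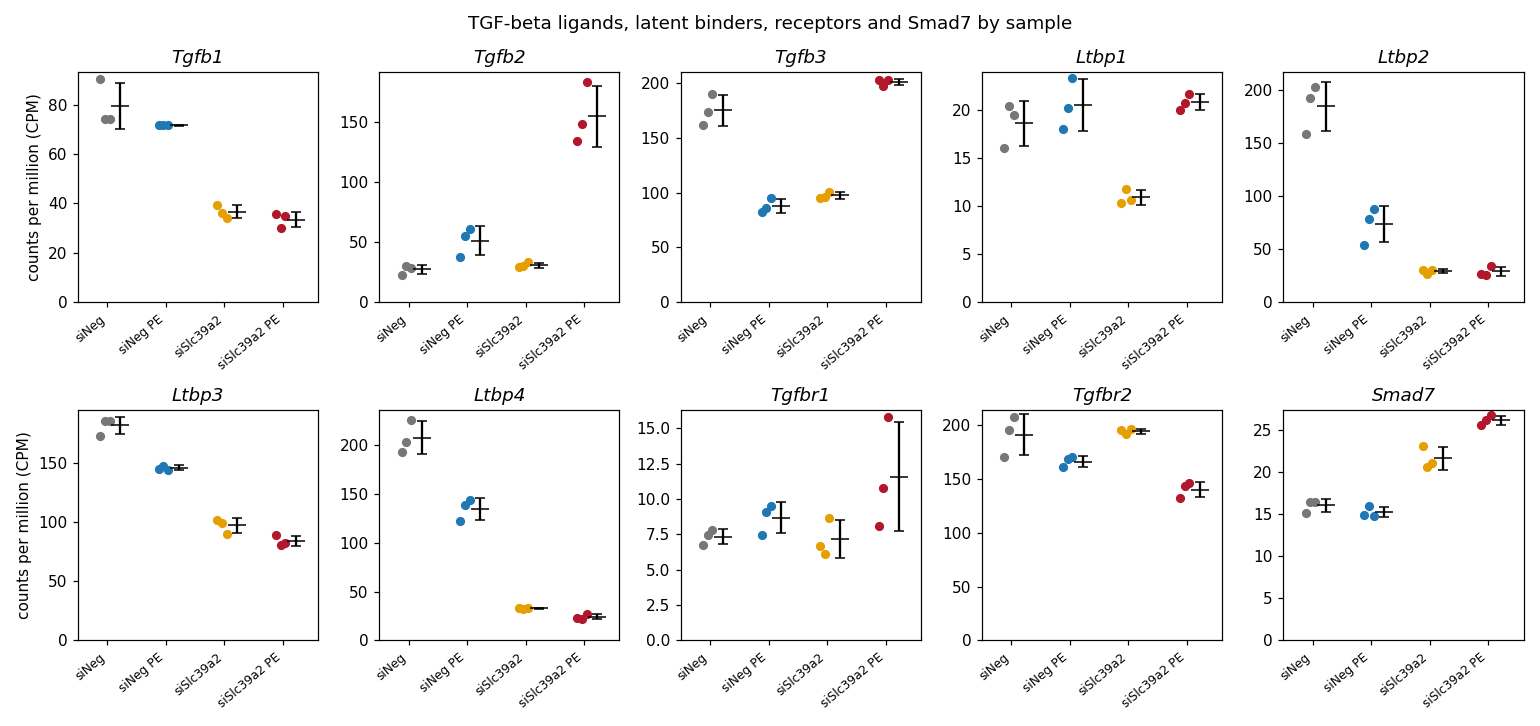
CPM of the 10 genes in each of the 12 samples, 1 panel a gene, with points for samples and a bar and whiskers for the mean and SD of each group (n = 3). Tgfb3 was at 162 to 190 CPM in siNeg and 197 to 203 in siSlc39a2 PE but at 101 or less in the other groups, while Ltbp4 was at 33.2 or less in all knockdown samples.

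Of the 4 latent binding proteins, Ltbp2, Ltbp3 and Ltbp4 were lower after knockdown in both PE states, and Ltbp1 without PE. Ltbp4, which binds latent TGF-beta weakly and is needed for elastic fibres, was at 193, 204 and 226 CPM in siNeg and at 33.2, 32.6 and 33.1 in siSlc39a2. With PE it was at 123, 139 and 144 CPM in siNeg PE and at 23.5, 22 and 27.6 in siSlc39a2 PE. No knockdown sample reached any siNeg sample, with or without PE. Under PE the knockdown cells had 5.56-fold less Ltbp4 (log2 fold change -2.47, SE 0.1, edgeR adjusted p = 3.4e-10), and without PE the log2 difference was -2.66 (SE 0.09). PE lowered it in siNeg cells by 0.62 (edgeR adjusted p = 0.000151) and after knockdown by 0.44 (edgeR adjusted p = 0.00164) on the log2 scale.

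Ltbp2, which binds fibrillin but not latent TGF-beta, was at 159, 193 and 203 CPM with siNeg and at 30.4, 26.8 and 30.1 CPM with siSlc39a2. With PE, Ltbp2 was at 54.5, 78.3 and 87.9 CPM with siNeg and at 26.7, 26.1 and 34.3 CPM with siSlc39a2. The 2 knockdown groups overlapped, and every sample of them lay below the siNeg PE samples, which lay below the siNeg samples. PE lowered Ltbp2 2.51-fold in siNeg cells (log2 fold change -1.33, SE 0.16, edgeR adjusted p = 3.76e-05) but gave a log2 fold change of 0 after knockdown, with an interval from -0.36 to 0.35 (edgeR adjusted p = 0.987). Under PE the knockdown cells had 2.53-fold less Ltbp2 (edgeR adjusted p = 2.08e-05), and without PE the log2 difference was -2.67 (SE 0.17).

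Ltbp3, a binder of latent TGF-beta that is best known in bone and teeth, was at 173, 186 and 186 CPM in siNeg and at 145, 148 and 144 in siNeg PE. It was at 102, 99.5 and 90.4 CPM in siSlc39a2 and at 89.1, 81 and 82.6 in siSlc39a2 PE. All knockdown samples lay below the siNeg PE samples. Under PE it was 1.73-fold lower after knockdown (edgeR adjusted p = 4.53e-07), and PE lowered it by 0.32 on the log2 scale in siNeg cells (edgeR adjusted p = 0.0014). After knockdown PE lowered it by 0.21 (edgeR adjusted p = 0.0121), a call lost without siSlc39a2 PE replicate 2 (adjusted p = 0.0567) or siSlc39a2 replicate 1 (adjusted p = 0.0572).

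Ltbp1, the binder first found on latent TGF-beta, was the lowest of the 4 per length in siNeg and the only one of them that PE raised, and that after knockdown. Without PE, Ltbp1 was at 16, 20.4 and 19.5 CPM with siNeg and at 10.3, 11.8 and 10.6 CPM with siSlc39a2. With PE, Ltbp1 was at 18, 20.2 and 23.3 CPM with siNeg and at 20, 20.7 and 21.7 CPM with siSlc39a2. Only the siSlc39a2 samples stood apart, below all the others. PE raised it 1.91-fold after knockdown (edgeR adjusted p = 2.99e-05). The PE effect in siNeg cells was 0.14 on the log2 scale (edgeR adjusted p = 0.322), and the knockdown effect under PE was 0.02, with an interval from -0.22 to 0.26 (edgeR adjusted p = 0.886). Both of these took the other sign in the fits on FPKM values. Without PE the knockdown samples differed by -0.77 (SE 0.12). The summed level of smooth muscle and pericyte markers was also lowest in siSlc39a2. It lay between 369 and 447 CPM there, against 686 to 798 in siNeg, 725 to 835 in siNeg PE and 722 to 740 in siSlc39a2 PE. Of these 7 markers, 7 were lower with knockdown without PE (median log2 fold change -0.93), and 2 were lower and 1 higher under PE (median -0.03). PE after knockdown raised 3 of them and lowered 3 (median 0.27), so the sum did not stand for all of them. Cnn1 went from 12 CPM in siSlc39a2 to 235 in siSlc39a2 PE and Cspg4 from 183 to 325, while Pdgfrb went from 174 to 143. Cspg4 also had the profile nearest to that of Ltbp1, as given below. The part of these markers in the Ltbp1 values was not tested.

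Fibroblast marker sums, like Tgfb1, Ltbp2, Ltbp3 and Ltbp4 and unlike Ltbp1, were lower after knockdown in both PE states. In siNeg, Col1a1 was at 10800 CPM, Col3a1 at 3530 and Col1a2 at 1750, beside a mean marker sum of 16700 CPM. The sum therefore mostly followed collagen mRNA. Of the 11 fibroblast markers, 8 were lower in siSlc39a2 than in siNeg and 8 were lower in siSlc39a2 PE than in siNeg PE, among them Col1a1 with log2 fold changes of -1.68 and -1.48. Tcf21, a transcription factor of cardiac fibroblasts, was higher in both comparisons, with log2 fold changes of 0.34 and 0.51. Pdgfra, a fibroblast receptor, was at 0.12 (edgeR adjusted p = 0.439) without PE and -0.28 (edgeR adjusted p = 0.0577) with PE. Ddr2, also on the list, was at -0.04 (edgeR adjusted p = 0.859) without PE and 0.15 (edgeR adjusted p = 0.474) with PE. The part of fibroblast number in the values of Tgfb1, Ltbp2, Ltbp3 and Ltbp4 was not tested.

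Tgfbr2, the ligand-binding receptor, was lowest in siSlc39a2 PE. Without PE, Tgfbr2 was at 170, 195 and 207 CPM with siNeg and at 195, 192 and 196 CPM with siSlc39a2. With PE, Tgfbr2 was at 161, 168 and 170 CPM with siNeg and at 132, 143 and 146 CPM with siSlc39a2. The siSlc39a2 PE samples lay below every other sample. PE lowered it after knockdown by 0.47 on the log2 scale (edgeR adjusted p = 0.000137), and the knockdown lowered it under PE by 0.24 (edgeR adjusted p = 0.0107). The decrease with PE in siNeg cells was 0.20 (edgeR adjusted p = 0.0328). That call was lost in 10 alternative analyses, where the log2 fold change ranged from -0.21 to -0.08. The log2 difference for knockdown without PE was 0.03 (SE 0.07).

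Tgfbr1, the kinase that phosphorylates SMAD2 and SMAD3, was the lowest of the 10 genes per length in siNeg. Without PE, Tgfbr1 was at 6.75, 7.43 and 7.8 CPM with siNeg and at 6.71, 6.1 and 8.66 CPM with siSlc39a2. With PE, Tgfbr1 was at 7.48, 9.08 and 9.54 CPM with siNeg and at 8.13, 10.8 and 15.8 CPM with siSlc39a2. The groups overlapped in every comparison. PE after knockdown gave a log2 fold change of 0.70 (SE 0.21, edgeR adjusted p = 0.0114). Without siSlc39a2 PE replicate 3 this was 0.41 (adjusted p = 0.0631), and without siSlc39a2 replicate 2 it was 0.59 (adjusted p = 0.0531). The knockdown effect under PE was 0.41 (edgeR adjusted p = 0.104), and without siSlc39a2 PE replicate 1 it was 0.61 (adjusted p = 0.0108). The PE effect in siNeg cells was 0.25 (edgeR adjusted p = 0.343), and the difference for knockdown without PE was -0.04 (SE 0.21).

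Smad7, the inhibitor, was higher after knockdown. Without PE, Smad7 was at 15.1, 16.4 and 16.4 CPM with siNeg and at 23.1, 20.6 and 21 CPM with siSlc39a2. With PE, Smad7 was at 14.9, 15.9 and 14.8 CPM with siNeg and at 25.6, 26.1 and 26.7 CPM with siSlc39a2. All knockdown samples lay above all siNeg and siNeg PE samples, and the siSlc39a2 PE samples lay above the siSlc39a2 samples. Under PE it was 1.72-fold higher after knockdown (log2 fold change 0.78, SE 0.08, edgeR adjusted p = 2.85e-06), and without PE the log2 difference was 0.43 (SE 0.08). PE raised it after knockdown by 0.28 (edgeR adjusted p = 0.00637), a call lost in the 3 fits on FPKM values (0.15 to 0.18, adjusted p from 0.0721 to 0.0809). In siNeg cells the PE effect was -0.07 (edgeR adjusted p = 0.464), while the fits on FPKM values gave -0.26 to -0.21 and passed the test.

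**Figure D2:**
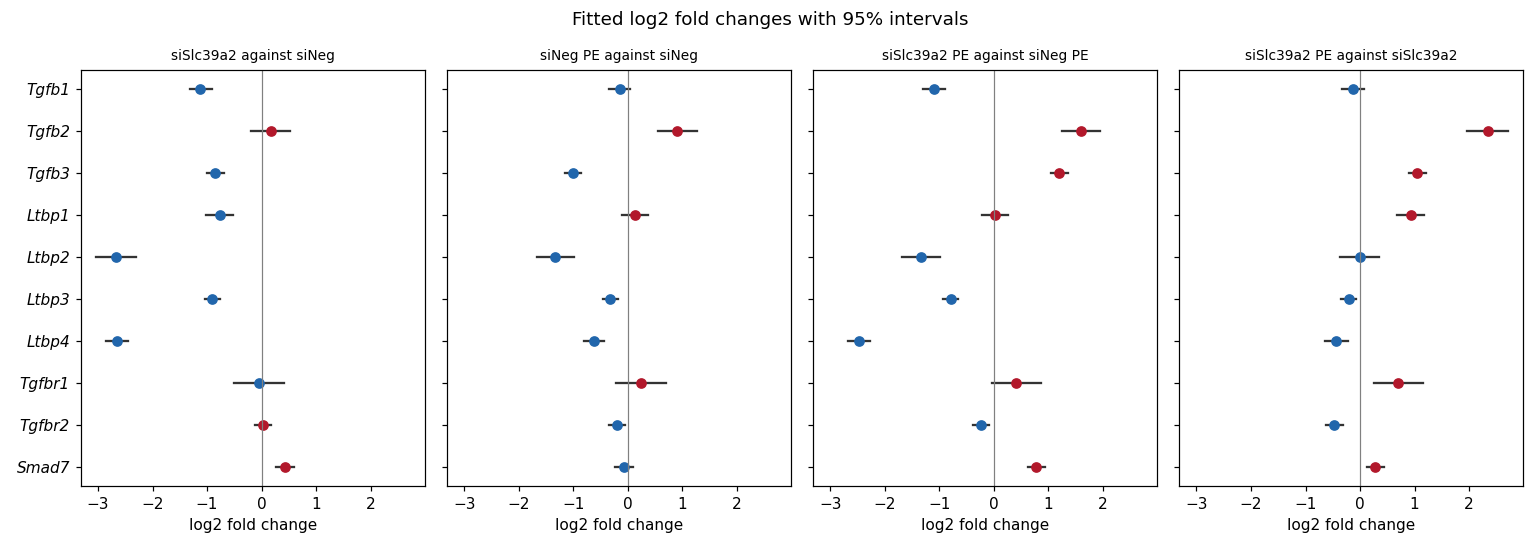
Fitted log2 fold changes (points) with 95% intervals (lines) of the 10 genes in the 4 comparisons, red where above 0 and blue where below. Tgfb3 lies at -0.85 for knockdown without PE and at 1.20 with PE, and Ltbp4 lies at -2.66 and -2.47. Values without PE in the knockdown comparison are a description.

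With PE, the knockdown raised 3 of the 10 genes (Tgfb2, Tgfb3 and Smad7) and lowered 5 (Tgfb1, Ltbp2, Ltbp3, Ltbp4 and Tgfbr2), beside 29.2% of all genes tested that were higher and 28.1% that were lower. At an absolute log2 fold change above 1 as well, 5 of the 10 genes passed, beside 11.6% of all genes tested. Among them, Tgfb1, Ltbp2 and Ltbp4 were also past that limit for knockdown without PE, on which the members were chosen. These counts are therefore not independent of the choice of members. The median log2 fold change of the 10 genes was -0.11, and that of all genes was 0.01.

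PE in siNeg cells raised 1 gene (Tgfb2) and lowered 5 (Tgfb3, Ltbp2, Ltbp3, Ltbp4 and Tgfbr2), beside 24% of all genes tested that were higher and 25.7% that were lower. Only Ltbp2 also passed the limit on fold change, beside 6.6% of all genes tested. PE after knockdown raised 5 (Tgfb2, Tgfb3, Ltbp1, Tgfbr1 and Smad7) and lowered 3 (Ltbp3, Ltbp4 and Tgfbr2), beside 30.7% and 29.3% of all genes tested. Tgfb2 and Tgfb3 also passed the limit on fold change, beside 10.5% of all genes tested. The medians of the 10 genes were -0.17 in siNeg cells and 0.14 after knockdown, beside -0.01 and 0.01 for all genes. Both comparisons share siNeg or siSlc39a2 samples with the knockdown comparison without PE, on which the members were chosen. These counts and medians are therefore not independent of that choice.

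For knockdown without PE, the same threshold of adjusted p below 0.05 marked 1 gene (Smad7) as higher and 6 (Tgfb1, Tgfb3 and the 4 Ltbp genes) as lower. Of all genes tested, 22.8% were higher and 26.4% were lower. At an absolute log2 fold change above 1 as well, 3 genes were marked (Tgfb1, Ltbp2 and Ltbp4), beside 9.78% of all genes tested. The median of the 10 genes was -0.81, and that of all genes was -0.02. Nothing is read from these counts, since the members were chosen with this comparison in view.

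**Figure D3:**
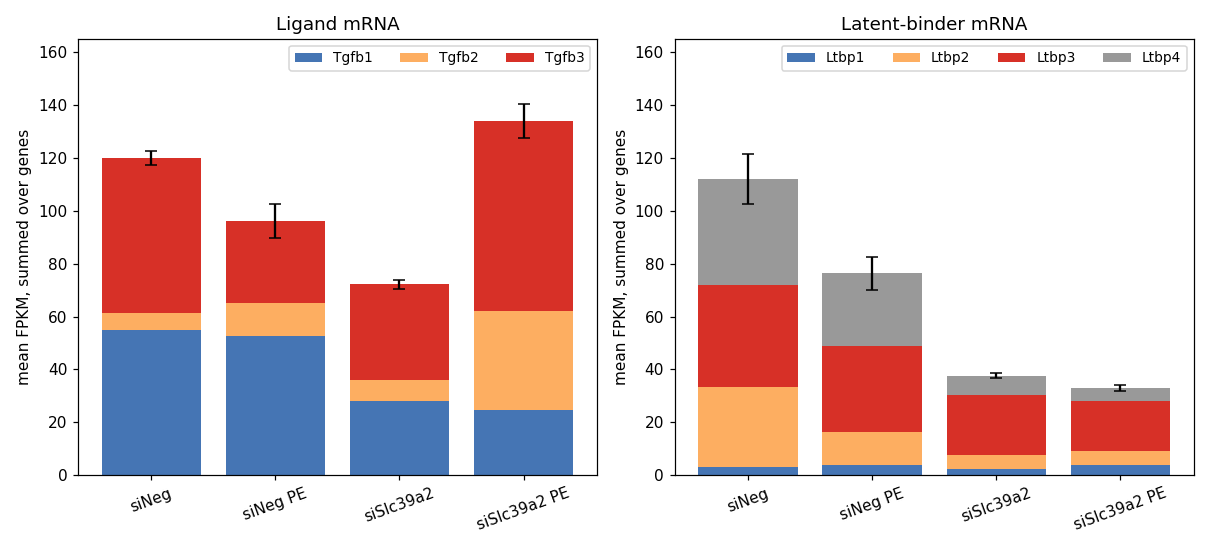
Mean FPKM of the 3 ligands (left) and the 4 latent binding proteins (right) stacked within each group, with whiskers for the SD of the sum (n = 3). The ligand sum goes from 120 in siNeg to 134 in siSlc39a2 PE, and the binder sum goes from 112 to 32.9.

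In levels per length (FPKM, fragments per kilobase scaled to library size), siSlc39a2 PE had the highest ligand sum and the lowest binder sum of the 4 groups. The 3 ligands summed to 120 ± 2.65 FPKM in siNeg and 72.2 ± 1.61 in siSlc39a2 (SD, n = 3). With PE they summed to 96.2 ± 6.36 FPKM in siNeg PE and 134 ± 6.54 in siSlc39a2 PE. The 4 binders summed to 112 ± 9.38 and 37.6 ± 0.961 FPKM without PE, and to 76.3 ± 6.18 and 32.9 ± 1.24 FPKM with PE. These sums were not tested. Ltbp2, which does not bind latent TGF-beta, made up 27% ± 0.35 of the binder sum in siNeg and 16.1% ± 1.33 in siSlc39a2 PE. The binder sum is thus a level of the gene family and not of latent binding. Tgfb2 made up 5.24% ± 0.672 of the ligand sum in siNeg and 27.7% ± 2.87 in siSlc39a2 PE, while Tgfb1 went from 45.9% ± 4.31 to 18.4% ± 1.43. Tgfb3 made up 48.9% ± 3.78 in siNeg and 53.9% ± 2.22 in siSlc39a2 PE. Among the binders Ltbp3 went from 34.3% ± 0.989 in siNeg to 60.8% ± 1.9 in siSlc39a2, and Ltbp4 from 35.9% ± 0.929 to 18.7% ± 0.559. In siNeg the order per length was Tgfb3 (58.7 ± 5.04 FPKM), Tgfb1 (55 ± 5.15), Ltbp4 (40.1 ± 3.95), Ltbp3 (38.3 ± 2.35), Tgfbr2 (36.9 ± 5.88), Ltbp2 (30.2 ± 2.91), Tgfb2 (6.28 ± 0.749), Smad7 (4.02 ± 0.19), Ltbp1 (3.25 ± 0.556) and Tgfbr1 (1.29 ± 0.146). Tgfb3 and Tgfb1 overlapped in their samples, and Ltbp4, Ltbp3, Tgfbr2 and Ltbp2 each overlapped the next in this order.

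Other genes of the pathway were taken from 6 lists, which were chosen with earlier results of these data known. Their counts are not independent of that choice, and stand beside the shares of all genes tested that were higher and lower. Those shares were 29.2% and 28.1% for knockdown under PE, 24% and 25.7% for PE in siNeg cells, 30.7% and 29.3% for PE after knockdown, and 22.8% and 26.4% for knockdown without PE. The matrix partners of the latent complex, which include fibrillins, fibronectin and small proteoglycans, were mostly lower after knockdown. Of 13, 11 were lower and none higher under PE (median log2 fold change -1.02), with the same counts without PE (median -1.19), where 1 was higher without siSlc39a2 replicate 3. Fibroblast markers, which share Dcn with this list, had medians of -1.16 under PE and -1.17 without PE, and their part in these values was not tested. Under PE the elastic fibre gene Fbln5 was at 14.7 ± 2.92 CPM against 52.9 ± 1.21 (log2 fold change -1.84, edgeR adjusted p = 3.09e-08) and the fibrillin gene Fbn1 at 172 ± 30.2 against 598 ± 144 (log2 fold change -1.80, edgeR adjusted p = 7.99e-06). PE in siNeg cells lowered 9, with the proteoglycan gene Fmod at -1.25 (edgeR adjusted p = 1.34e-06), and raised 1, a call lost when any siNeg replicate or siNeg PE replicate 2 or 3 was left out. After knockdown PE lowered 6 and raised 1 (2 without siSlc39a2 PE replicate 1 and 0 without siSlc39a2 PE replicate 3 or siSlc39a2 replicate 2), with Adamtsl2, whose product binds Ltbp1, at -1.65 (edgeR adjusted p = 1.76e-07).

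Of 20 genes that process or activate latent ligand, 8 fell and 7 rose with knockdown under PE. The gelatinase gene Mmp2 fell by 1.87 on the log2 scale (edgeR adjusted p = 1.1e-10) and the membrane metalloprotease gene Mmp14 by 1.65 (edgeR adjusted p = 2.12e-09). PE raised 8 of the 20 in siNeg cells and 9 after knockdown, and lowered 6 and 5. The 6 became 3 without siNeg replicate 2 or siNeg PE replicate 1 or 2. Transglutaminase gene Tgm2, whose product crosslinks latent complexes to matrix, rose by 1.05 (edgeR adjusted p = 1.04e-06) in siNeg cells and by 1.35 (edgeR adjusted p = 7.19e-08) after knockdown. Integrin gene Itgav, which encodes the alpha-v chain of the receptors that release TGF-beta, rose by 0.76 (edgeR adjusted p = 0.00207) and 1.25 (edgeR adjusted p = 3.76e-05). Without PE, 10 of the 20 were lower after knockdown and 2 were higher.

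Among 13 pathway inhibitors, knockdown under PE raised 7 and lowered 2. Skil, a repressor of SMAD target genes, was at 36.4 ± 9.83 CPM against 14.7 ± 2.77 (log2 fold change 1.31, edgeR adjusted p = 0.00022). The ubiquitin ligase gene Smurf2, whose product acts with Smad7 on the receptor, was at 97.5 ± 19.4 CPM against 50.6 ± 4.63 (log2 fold change 0.95, edgeR adjusted p = 0.000139). PE after knockdown raised 5 and lowered 3 (5 without siSlc39a2 replicate 3). Knockdown without PE was higher in 5 (3 without siNeg replicate 1) and lower in 2. PE in siNeg cells raised 4 (2 without replicate 3 of siNeg or of siNeg PE) and lowered 3 (1 without siNeg replicate 1 or 3 or any siNeg PE replicate).

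Of 6 accessory receptors and traps, 4 were lower and none higher with knockdown under PE, with the co-receptor gene Tgfbr3 at -0.89 (edgeR adjusted p = 1.03e-05). Without PE 4 were lower and none higher, but 2 were lower when replicate 2 or 3 of siNeg or of siSlc39a2 was left out, and 1 was higher without siNeg replicate 1. PE in siNeg cells lowered 3 of them and raised 1 (0 without siNeg replicate 1 or siNeg PE replicate 2 or 3). After knockdown PE lowered 4 and raised 1 (2 without siSlc39a2 PE replicate 2). Of 5 SMAD transducers and adaptors, Smad3 was lower in all 4 comparisons, by between 0.28 and 0.57 on the log2 scale. PE raised 2 of the 5 after knockdown. It raised 2 in siNeg cells as well, which became 0 without siNeg replicate 1 or siNeg PE replicate 3, and 1 without siNeg replicate 2 or siNeg PE replicate 1 or 2.

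**Figure D4:**
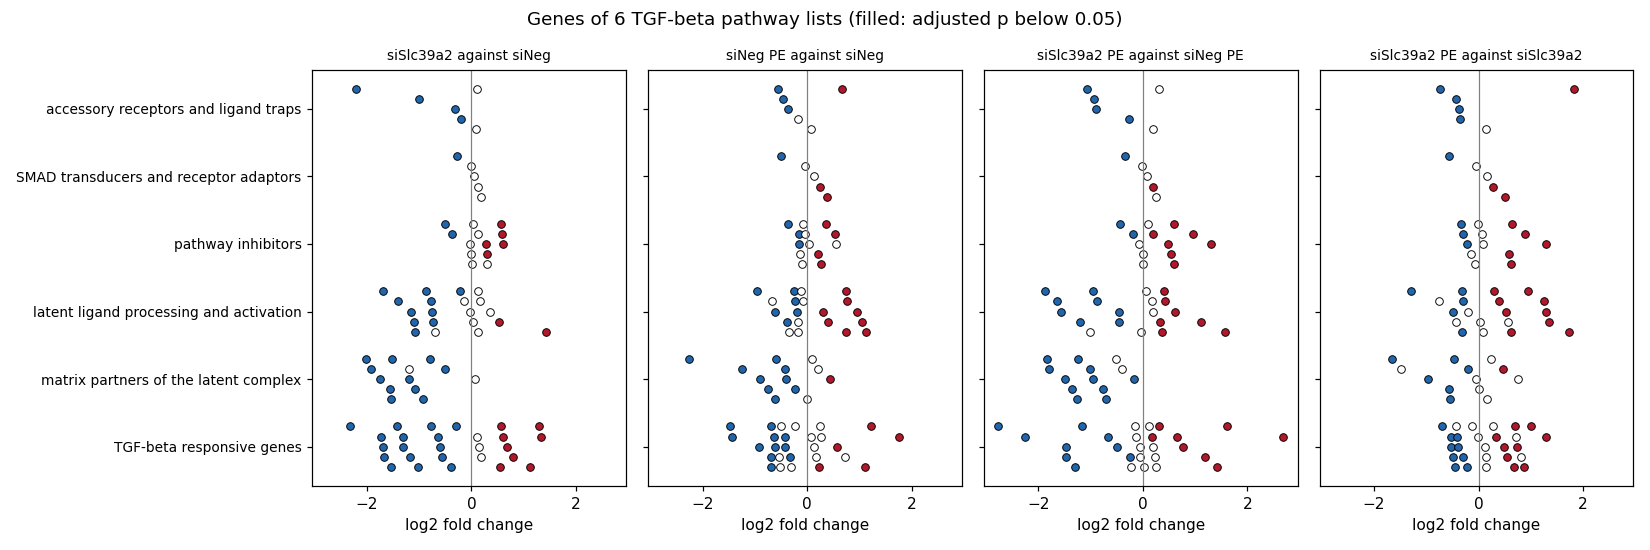
Fitted log2 fold changes of the genes in 6 TGF-beta pathway lists (rows) in the 4 comparisons (panels), with filled points for adjusted p below 0.05, red above 0 and blue below. For knockdown under PE, 11 of 13 matrix partners lie below 0 and passed the test, while Ctgf lies at 1.60 in the list of responsive genes.

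Of 27 TGF-beta responsive genes tested, knockdown under PE raised 8 and lowered 9 (median log2 fold change -0.05), and knockdown without PE was higher in 8 and lower in 16 (median -0.56). Col1a1, Col1a2, Col3a1 and Postn of this list are also fibroblast markers, and each was lower in both knockdown comparisons. The part of fibroblast number in these counts was not tested. Ctgf, which encodes a matricellular growth factor, was at 330 ± 26.3 CPM with siNeg and 215 ± 15.6 with siSlc39a2 without PE, and at 174 ± 38.9 and 527 ± 26.5 CPM with PE. PE lowered Ctgf in siNeg cells by 0.93 (edgeR adjusted p = 9.92e-05) and raised it after knockdown by 1.29 (edgeR adjusted p = 4.14e-06). PE raised 5 and lowered 11 of the 27 in siNeg cells and raised 9 and lowered 9 after knockdown. In siNeg cells the smooth muscle gene Tagln fell by 1.48 (edgeR adjusted p = 8.46e-08), and the cyclin-dependent kinase inhibitor gene Cdkn2b rose by 1.22 (edgeR adjusted p = 8.02e-06). Mmp14 has counts that are partly shared with other genes in the authors' estimates, and its values are uncertain to that extent.

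The profile of a gene over the 12 samples was compared with that of each other gene by the root mean square difference of log2 CPM after centring. Tgfb3 was nearest to Cyr61 (0.176) and Ctgf (0.207), both of which encode secreted matricellular proteins, and then to Tnfrsf11b (0.22). Tgfb2 was nearest to Enah (0.0883) and Creb5, and Tgfb1 to Pld3 (0.0811), P3h4 and Immp1l. Ltbp2 was nearest to Col11a1 (0.245) and Ltbp4 to Apoe (0.188) and Col8a2 (0.19), with Apoe counts partly shared with other genes. Ltbp3 was nearest to Adamts10 (0.0539), Ltbp1 to Cspg4 (0.138), Smad7 to Ints12 (0.0896), Tgfbr2 to Aff1 (0.057) and Tgfbr1 to Strbp (0.0889). Among the members the nearest pair was Tgfb1 and Ltbp3 (0.177), followed by Tgfbr1 and Ltbp1 (0.361), and the farthest was Tgfb2 and Ltbp4 (2.06).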

How the data were processed

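RNA sequencing libraries of 12 NRVM cultures, 3 biological replicates in each of 4 groups per the study, were analysed. The authors deposited expected counts per gene, which need not be whole, and FPKM values (normalised to length and depth). The submitters' processing notes name HISAT, Bowtie2 and the build Rnor_6.0, without their roles. Members and gene lists were chosen with earlier results of these data known.

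Expected counts were rounded, and a single model over all groups was fitted with edgeR 4.0.16 in R 4.3.3 (TMM, filterByExpr, quasi-likelihood F-test, Benjamini-Hochberg over all 13967 genes tested), and a gene was called at adjusted p below 0.05. Standard errors were taken from the F statistic. The study used limma after between-array normalisation; limma 3.58.1 on quantile-normalised log2(FPKM + 1) and log2(FPKM + 0.1), and DESeq2 1.42.0, were alternatives. CPM used TMM library sizes. Scripts were tested on simulated data. Genes named were the members, Slc39a2, defining markers, the nearest profiles, and within each list and comparison the 3 largest called changes at a mean log2 CPM above 1. Ctgf is also given in comparisons where that rule did not name it, chosen after its values were seen. Some genes that the rule names are not reported here. Chi-square per degree of freedom between samples within groups ran from 4.69 to 34.1, so none was a duplicate of another in its group. Pairs across groups were not compared in this way.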

Additional observations from a re-analysis of the deposited data

Results flagged for a closer look

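Tgfb3 moved in opposite directions in 2 pairs of contrasts, with no overlap between the groups of any of the 4 comparisons. The knockdown samples were lower without PE (log2 fold change -0.85) and higher with PE (1.20). PE samples were lower with siNeg (-1) and higher after knockdown (1.04). The difference itself was not tested, because the members were chosen with the knockdown comparison in view. No sample was examined as an outlier, since each group held 3 samples.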

How the results depend on the processing

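The number of members called stayed within 1.5 times that of the main analysis in all alternatives except the one that also required an absolute log2 fold change above 1. That alternative left 1 of 6 for PE in siNeg cells, 5 of 8 for knockdown under PE and 2 of 8 for PE after knockdown. For knockdown without PE, on which the members were chosen, it left 3 of 7, which says nothing about stability. Leaving out each sample in turn gave 5 to 6 for PE in siNeg cells, 8 to 9 for knockdown under PE and 7 to 8 for PE after knockdown.

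Over 750 values of the members in alternatives, 690 kept their direction and their side of the threshold, or, for values with no test, moved by less than the replicate spread. Of the rest, 17 were no longer past the threshold, 5 came past it, 27 moved and 11 changed sign. Ltbp1 with PE in siNeg cells (0.14) was -0.04, -0.04 and -0.03 in the fits on FPKM values. Ltbp1 with knockdown under PE (0.02) was -0.07, -0.08 and -0.07 in those fits, -0.07 without siNeg PE replicate 1 and -0.01 without siSlc39a2 PE replicate 3, and leaving out single samples gave -0.07 to 0.12. Ltbp2 with PE after knockdown, which is near 0, was 0.03, 0.07 and 0.03 when siSlc39a2 PE replicates 1 and 2 and siSlc39a2 replicate 1 were left out, in a range of -0.14 to 0.07. The cause was not tested.

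With the replicate number as a block, the members called were 6 for PE in siNeg cells, 9 for knockdown under PE and 8 for PE after knockdown. The added call was Tgfbr1 (log2 fold change 0.38, adjusted p = 0.0302). Samples with the same number had correlated deviations of 0.0535 to 0.315, 0.00387 to 0.32 and -0.0904 to 0.221 in these comparisons. Of 6 samples, 4, 4 and 2 were nearest to their own number, and the number was not treated as a pairing in the main analysis. Over all genes the block gave more calls in every comparison. For PE in siNeg cells it gave 3919 higher and 4111 lower, against 3351 and 3584 without it. An effect shared by samples of the same number was not tested.

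The counts for the gene lists were also recomputed without each library, an alternative chosen after seeing the data, and pathway counts that moved by over 1.5 times are given beside them.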
